A study of Mus musculus with 6 samples.

Results

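Arginine is made from citrulline by Ass1 and Asl and is split by arginase into urea and ornithine. Ornithine is the branch point: Otc joins it with the carbamoyl phosphate of Cps1 to give citrulline, Odc1 turns it into putrescine, and Oat converts it to and from the intermediate that Aldh18a1 supplies from glutamate. Srm makes spermidine from putrescine, and Gatm uses arginine for the first step of creatine synthesis. In the small intestine, mitochondrial enzymes of this route make citrulline that is exported to other organs, and polyamines are known to be needed by dividing epithelial cells.

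The 10 genes described here are Arg2 (the mitochondrial arginase), Ass1, Asl, Otc, Cps1, Oat, Aldh18a1, Odc1, Srm and Gatm, taken by symbol from the 32285 genes listed in the matrices. The list was built around Arg2, which was chosen by its difference in UMI counts between genotypes in stem-like cells of these same libraries, so values of Arg2 in stem-like cells and in all epithelial cells are given as a description with no test. Mouse ileal crypts had been dissociated, sorted for the epithelial surface protein EpCAM and sequenced as single cells in 6 libraries. In 3 libraries the mice carried a floxed, intact Fpr2 gene (Fpr2f/f, labelled WT), and in 3 libraries the Villin promoter drove a Cre recombinase meant to delete Fpr2 in the intestinal epithelium (Fpr2VKO). The study describes C57BL/6J mice, adult and matched for sex and age. Fpr2 is a receptor for formyl peptides.

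The libraries held 90142126 to 189516114 UMIs (unique molecular identifiers, each marking 1 captured transcript). Barcodes with at least 1000 UMIs, at least 500 genes and at most 20% mitochondrial UMIs numbered 17104, and 16367 epithelial cells were left after 428 doublets and 309 immune-like cells were removed. The mitochondrial limit took away 65.7% to 90.1% of the barcodes that passed the other limits. Before that limit the median mitochondrial share of a barcode was 26.3% to 31.7% in Fpr2f/f and 32.4% to 39.3% in Fpr2VKO libraries, and the cells kept held a median of 2965 to 4515 and 6246 to 6517 UMIs. Neither measure overlapped between genotypes, and their part in the differences below was not tested. Fpr2 itself had 0 UMIs in each of the 6 libraries, which allows at most 0.0615 to 0.120 CPM (counts per 1000000 UMIs) by counting error alone, so the genotype labels could not be checked from it. Fpr2 overlaps Fpr3 on the same strand. Marker sums of immune, macrophage and stromal cells stayed at or below 21.4 CPM in each of the 5 classes tested and in all epithelial cells, with C1qa, C1qb and Lyz2 at 0 in stem-like cells.

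Cells were clustered without the 10 genes, and clusters were named only from marker lists, with the ending "-like" because transcripts alone were used. The classes were stem-like (659 cells), transit-amplifying or TA-like (2071), enterocyte-like (2420), Paneth-like (974), goblet-like (1489), enteroendocrine-like (394) and tuft-like (333). Another 8027 epithelial cells stayed unnamed. Of these, clusters that a looser naming limit would have named made up 35.6% ± 3.50 of the cells of an Fpr2f/f library and 26.3% ± 3.62 of those of an Fpr2VKO library (SD, n = 3 each). Levels are in CPM of the class, computed per library, and the library was the replicate.

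Arg2 (chromosome 12, 79130777 to 79156301, GRCm38) was an enterocyte gene in these crypts. It reached 600 ± 152 CPM in enterocyte-like cells (SD, n = 6 libraries). In every library that level was higher than in each other class. The unnamed cells followed with 120 ± 30.7 CPM and TA-like cells with 112 ± 60.9 CPM, and the ranges of these neighbours overlapped. Stem-like cells had 16.01 ± 9.94 CPM and Paneth-like cells 5.72 ± 2.08 CPM, the lowest level. Per library, the enterocyte-like level was a geometric mean of 41.2 times the stem-like level and 6.01 times the TA-like level. The genes most like Arg2 over 48 points of class and library, by Pearson r of log2(CPM + 1) among 6399 genes, were Ugt2a3 (0.94), Enpep (0.93), Car4 (0.93), Mttp (0.93) and Sult1b1 (0.93). These points share libraries and differ in depth, and r is given as a description.

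**Figure D1:**
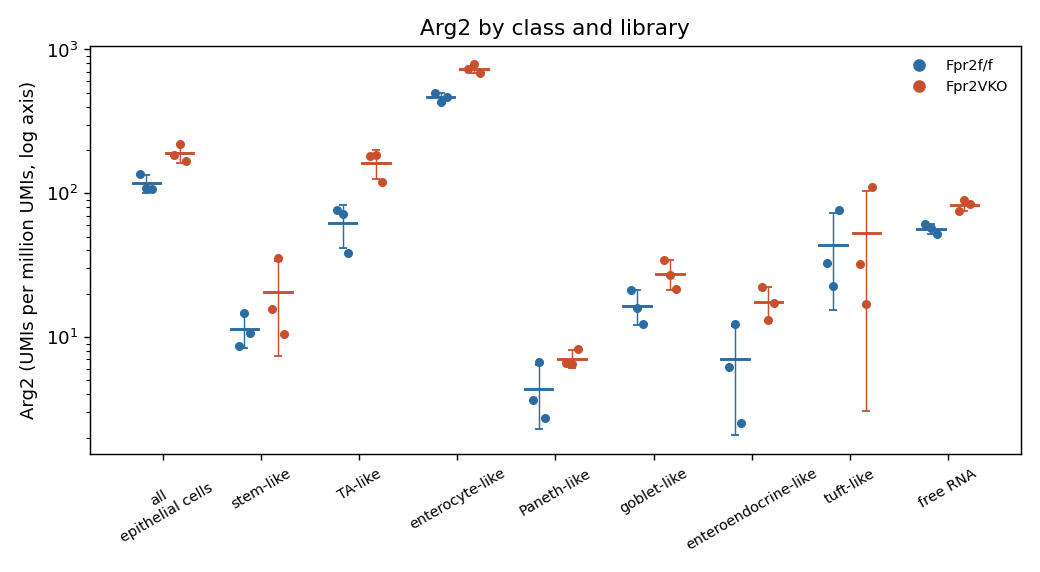
Arg2 in UMIs per 1000000 UMIs (log axis) in all epithelial cells, in each named class and in free RNA (barcodes with fewer than 100 UMIs), 1 point per library, with the mean and SD of 3 libraries per genotype. Enterocyte-like cells sit between 434 and 786 CPM, and the Paneth-like mean is lowest, at 5.72 CPM.

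Free RNA, read from barcodes with fewer than 100 UMIs, held Arg2 at 56.7 ± 4.59 CPM in Fpr2f/f and 82.7 ± 7.17 CPM in Fpr2VKO libraries (SD, n = 3 each). The mean levels of Arg2 in stem-like, goblet-like, Paneth-like, enteroendocrine-like and tuft-like cells lay below that of free RNA. After each cell was thinned to 3000 UMIs, Arg2 was detected in 56.2% ± 10.9 of the enterocyte-like cells of Fpr2f/f and 75.9% ± 8.87 of those of Fpr2VKO libraries, and the highest Fpr2f/f library (66.5%) overlapped with the lowest Fpr2VKO library (65.9%). In stem-like cells the thinned shares were 2.88% ± 2.72 and 6.89% ± 4.16, against 2.77% ± 2.65 and 5.39% ± 0.791 in Paneth-like cells. The ranges of mean and SD of these 2 classes overlapped in both genotypes. Without thinning, the enterocyte-like shares were 48.0% ± 4.97 and 76.4% ± 5.68, and the stem-like shares 19.1% ± 6.33 and 32.3% ± 8.87. Thinning left out 670 enterocyte-like cells of Fpr2f/f and 190 of Fpr2VKO, which were shallower than that limit, and kept 884 and 676.

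Between genotypes, the estimate for Arg2 was higher in Fpr2VKO in each of the 4 fits in which it was tested. Arg2 was chosen from these same libraries, and the cells of these classes are part of the pooled epithelial cells. The signs, p-values and separations of Arg2 given below are therefore no independent support. With the edgeR quasi-likelihood test and no block by replicate number, Arg2 passed the adjusted threshold of 0.05 in none of the 4 fits. Some alternatives given below called it in enterocyte-like or TA-like cells. In enterocyte-like cells the 3 Fpr2f/f libraries had 498, 434 and 466 CPM and the 3 Fpr2VKO libraries 731, 786 and 687 CPM. The groups did not overlap, and each Fpr2VKO library was the higher, as for 8.4% of the genes tested in that class. The difference of Arg2 was a log2 fold of 0.65 (SE 0.11) with an edgeR adjusted p of 0.0637. DESeq2 gave the same fold with an adjusted p of 0.000399. Over 14 alternatives the adjusted p ranged from 0.000164 to 0.426, and leaving out Fpr2f/f replicate 2 alone moved it to 0.0467.

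The enterocyte-like class held the same clusters in the 2 genotypes, in different shares. The shares given here pool the cells of 3 libraries per genotype and carry no spread. Of the pooled cells, 74.8% in Fpr2f/f but 35.3% in Fpr2VKO libraries lay in a shallow cluster led by Creb3l3 and Areg. A single library held 51.0% of the cells of that cluster, and Fpr2f/f replicate 2 had the most enterocyte-like cells of any library (864). A deep cluster led by Reg1 and Arg2 held 19.6% and 44.1% of the cells and most of the UMIs of the class in both genotypes (62.0% and 65.1%), and a cluster led by Fabp1 and Reg1 held 12.8% and 28.6% of the UMIs. Within the Reg1-led deep cluster Arg2 had 519, 545 and 481 CPM in Fpr2f/f and 703, 681 and 668 CPM in Fpr2VKO libraries. The groups again did not overlap there, but the log2 fold was smaller, at 0.39 (SE 0.12, edgeR adjusted p = 0.426). In the Fabp1-led cluster, where Arg2 was highest, its level was 821 ± 84.2 and 977 ± 63.5 CPM with overlap of the groups. In the Creb3l3-led cluster it was 128 ± 35.0 and 194 ± 22.1 CPM, again with Fpr2VKO above.

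**Figure D2:**
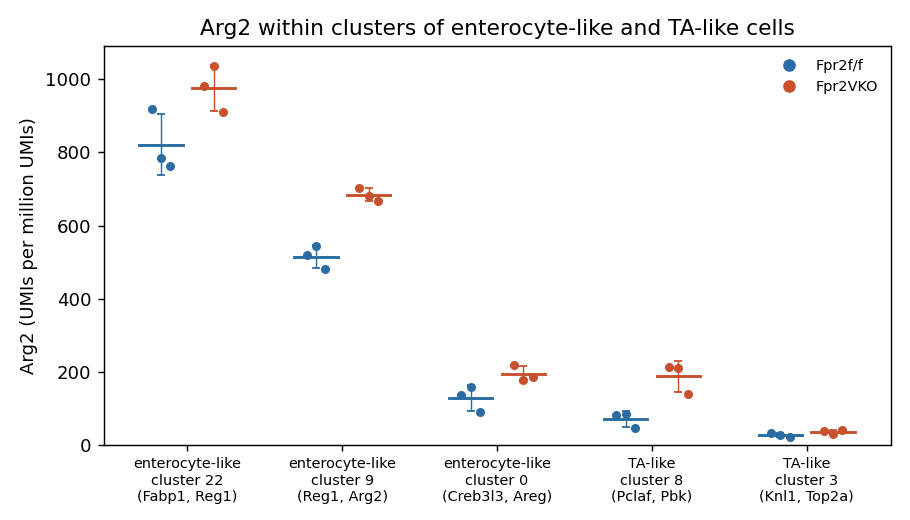
Arg2 in UMIs per 1000000 UMIs within 3 clusters of enterocyte-like cells and both clusters of TA-like cells, 1 point per library, with the mean and SD of 3 libraries per genotype. Fpr2VKO libraries lie above all Fpr2f/f libraries in clusters 9, 0 and 8 and overlap with them in clusters 22 and 3.

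In TA-like cells, the dividing progeny of stem cells, Arg2 was at 76.1, 72.1 and 38.3 CPM in Fpr2f/f and at 181, 185 and 119 CPM in Fpr2VKO libraries. All Fpr2VKO libraries were higher, as for 4.06% of the genes tested in that class, and Fpr2f/f replicate 3 was the lowest of the 6. The Fpr2f/f mean of 62.2 ± 20.7 CPM lay near the free RNA level of those libraries (56.7 ± 4.59 CPM), while their Paneth-like cells had 4.37 ± 2.08 CPM. The part of free RNA in the counts of TA-like cells was not measured. The thinned shares of TA-like cells with Arg2, 11.4% ± 3.54 in Fpr2f/f and 19.2% ± 6.24 in Fpr2VKO, overlapped between genotypes. The log2 fold was 1.39 (SE 0.31, edgeR adjusted p = 0.522). With the replicate number as a block the fold was 1.42 (SE 0.11) with an edgeR adjusted p of 8.71e-09. The labels do not say that equal replicate numbers mark a pair. Deviations of these same libraries cannot settle whether they do. Without Fpr2f/f replicate 3 the fold was 1.12 with an adjusted p of 0.0136, and over 15 alternatives the adjusted p ranged from 3.75e-10 to 0.99976. The fold ran from 0.65, with a mitochondrial limit of 40% (edgeR adjusted p = 0.551), to 1.58. In the cluster led by Pclaf and Pbk Arg2 was at 70.6 ± 21.2 and 187 ± 41.7 CPM and the groups did not overlap. An edgeR fit on that cluster alone called 0 members. In the cluster led by Knl1 and Top2a Arg2 was at 26.3 ± 4.996 and 35.8 ± 5.23 CPM and the groups overlapped. Whether the clusters differed in this was not tested.

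The summed level of enterocyte markers was also higher in Fpr2VKO libraries in several sets of cells. The sum of the 10 enterocyte markers ranged from 538 to 709 CPM in TA-like cells of Fpr2f/f and from 946 to 998 CPM in Fpr2VKO libraries. In enterocyte-like cells it ranged from 5653 to 7541 and from 7866 to 11408 CPM, and in all epithelial cells from 1525 to 1764 and from 1983 to 2866 CPM. In each of the 3 the groups did not overlap, all 10 markers had UMIs, and the part of these transcripts in the difference of Arg2 was not tested. In Paneth-like cells the sums overlapped, at 132 to 174 and 122 to 149 CPM. Other lists separated too, among them stem markers in all epithelial cells (936 to 1323 and 2163 to 2226 CPM). Goblet markers were lower in Fpr2VKO goblet-like cells (121486 to 136353 and 104940 to 111818 CPM). A sum does not show that each marker moved.

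In stem-like cells, the Lgr5-bearing base of the crypt, Arg2 had 8.71, 14.8 and 10.8 CPM in Fpr2f/f and 15.7, 35.6 and 10.6 CPM in Fpr2VKO libraries, from 16, 38, 21, 68, 209 and 40 UMIs. Fpr2VKO replicate 2 was far above the rest, and the groups overlapped. The log2 fold of this contrast was 0.88 (SE 0.54) with all libraries and 0.18 without Fpr2VKO replicate 2. The enterocyte marker sum in stem-like cells was 300 to 367 CPM in Fpr2f/f and 393 to 485 CPM in Fpr2VKO libraries. In all epithelial cells pooled Arg2 was at 136, 108 and 107 CPM against 184, 222 and 167 CPM, with no overlap. That was a log2 fold of 0.76 (SE 0.14), given as a description. Of all 16484 genes tested, 3.32% lay higher in every Fpr2VKO library, which is no support because Arg2 was chosen from these libraries. Stem-like cells were 2.24% ± 0.497 of the epithelial cells of Fpr2f/f and 6.67% ± 1.75 of those of Fpr2VKO libraries.

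Among secretory cells Arg2 was low. Goblet-like cells, which make mucus, held it at 16.6 ± 4.53 CPM in Fpr2f/f and 27.6 ± 6.55 CPM in Fpr2VKO libraries, a log2 fold of 0.72 (SE 0.21, edgeR adjusted p = 0.204). Paneth-like cells, the defensin-making neighbours of stem cells, held it at 4.37 ± 2.08 and 7.08 ± 0.979 CPM with overlap of the groups (log2 fold 0.58, SE 0.34, edgeR adjusted p = 0.706). In goblet-like cells the groups were barely apart, and both genotypes lay below the free RNA level. The highest Fpr2f/f library had 21.4 CPM (42 UMIs) and the lowest Fpr2VKO library 21.5 CPM (47 UMIs). Of the genes tested there, 10.1% lay higher in every Fpr2VKO library. One cell held 22.6% of the 124 goblet-like Arg2 UMIs of Fpr2VKO replicate 1. In each of the 3 goblet-like clusters the groups overlapped. With cells pooled over libraries, the Fcgbp-led cluster held 57.9% of the class in Fpr2f/f and 42.3% in Fpr2VKO, the Agr2-led cluster 33.3% and 47.9%. The enterocyte marker sum in goblet-like cells was 983 to 1202 CPM in Fpr2f/f and 1248 to 1366 CPM in Fpr2VKO libraries, and its part in the values of Arg2 was not tested. Enteroendocrine-like cells had 7.01 ± 4.93 and 17.5 ± 4.63 CPM of Arg2 from 1 to 25 UMIs per library. The highest Fpr2f/f library (12.3 CPM) was just under the lowest Fpr2VKO library (13.1 CPM), and 4.26% of genes there lay higher in every Fpr2VKO library. Vti1b, which overlaps Arg2 on the opposite strand, had log2 folds of 0.10 in TA-like and 0.18 in enterocyte-like cells (edgeR adjusted p = 0.99989 and 0.662).

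The citrulline-making pair Otc and Cps1 had its highest levels in stem-like, TA-like, enterocyte-like and unnamed cells. Otc (chromosome X, 10252305 to 10321024) was highest in enterocyte-like cells at 357 ± 65.1 CPM, followed by TA-like cells at 303 ± 37.1 CPM and stem-like cells at 287 ± 45.0 CPM (SD, n = 6), with overlapping ranges. Unnamed cells had 249 ± 48.6 CPM of Otc and 999 ± 298 CPM of Cps1, and tuft-like cells 106 ± 39.2 and 356 ± 212 CPM. Otc had 30.4 ± 8.53 CPM in goblet-like and 8.99 ± 2.13 CPM in Paneth-like cells. Cps1 (chromosome 1, 67123026 to 67231259), which makes carbamoyl phosphate in mitochondria, had another order: 2600 ± 248 CPM in stem-like, 1737 ± 243 CPM in TA-like and 796 ± 197 CPM in enterocyte-like cells. The stem-like and TA-like ranges of Cps1 did not overlap, and stem-like cells were the higher in all 6 libraries. After thinning to 3000 UMIs, Cps1 was detected in 97.7% ± 2.14 of the stem-like cells of Fpr2f/f and 98.9% ± 0.719 of those of Fpr2VKO libraries, against 16.8% ± 1.47 and 18.3% ± 7.59 of Paneth-like cells (median depth before thinning 29635 and 19466 UMIs). Free RNA held Cps1 at 285 ± 51.2 CPM in Fpr2f/f and 368 ± 55.8 CPM in Fpr2VKO libraries, near the tuft-like level. How much of the tuft-like counts was free RNA was not measured. Those counts were also concentrated. In each library with at least 20 tuft-like UMIs of the gene, 1 cell held 32.0% to 52.0% of them for Cps1. For Otc it held 20.9% to 51.4%. Paneth-like cells had 35.8 ± 6.47 CPM of Cps1, and there the 7 Paneth markers alone summed to between 362934 and 408029 CPM.

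Over the 48 points of class and library Otc and Cps1 varied together (r = 0.93), while Arg2 was closer to Aldh18a1 (0.74) and Otc (0.73) than to Cps1 (0.55). The gene most like Otc was Mgst1 (0.98), which encodes a microsomal glutathione transferase, and the gene most like Cps1 was Hspe1 (0.98), a mitochondrial chaperonin.

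Otc was the member other than Arg2 whose libraries most often separated by genotype. In enterocyte-like cells Fpr2f/f libraries had 330, 246 and 366 CPM and Fpr2VKO libraries 384, 380 and 439 CPM. Stem-like cells had 235, 246 and 280 CPM against 323, 284 and 353 CPM, and TA-like cells 273, 258 and 294 CPM against 336, 300 and 356 CPM. In these 3 classes and in goblet-like cells every Fpr2VKO library was above every Fpr2f/f library, although several gaps were small. The same held for 8.4%, 5.59%, 4.06% and 10.1% of the genes tested in enterocyte-like, stem-like, TA-like and goblet-like cells. The log2 folds were 0.35 (SE 0.13), 0.34 (SE 0.12), 0.28 (SE 0.13) and 0.59 (SE 0.18) in enterocyte-like, stem-like, TA-like and goblet-like cells, and none passed the threshold (edgeR adjusted p = 0.425, 0.625, 0.99989 and 0.224). Free RNA of Otc was also higher in Fpr2VKO, at 91.7 ± 14.2 against 69.2 ± 8.78 CPM. Goblet-like cells lay below it, at 37.3 ± 4.25 and 23.6 ± 4.87 CPM, and 1 cell held 10.9% to 27.3% of the goblet-like Otc UMIs of each library. Within the deep Reg1-led cluster the groups of Otc overlapped (357 ± 43.3 and 401 ± 25.5 CPM).

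The groups of Cps1 overlapped in the 5 classes tested. In enterocyte-like cells it had 985, 469 and 775 CPM in Fpr2f/f and 684, 896 and 966 CPM in Fpr2VKO libraries, a log2 fold of 0.19 (SE 0.25, edgeR adjusted p = 0.837). That fold ran from -0.04 to 0.88 over 14 alternatives. Cps1 was called with a mitochondrial limit of 40% (0.88, edgeR adjusted p = 0.0242) and without alignment of libraries (0.70, edgeR adjusted p = 0.0448). Those fits called 0.253% and 6.3% of all genes. Both settings clustered the cells anew, and a deep cluster with Arg2 among its leading genes was then outside the enterocyte-like class. Fpr2f/f replicate 2 was the lowest of the 6. In stem-like cells the log2 fold was 0.18 (SE 0.12, edgeR adjusted p = 0.932).

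Aldh18a1 (chromosome 19, 40550257 to 40588463), the synthase that starts proline and ornithine formation from glutamate, was also highest in enterocyte-like cells. It had 149 ± 18.2 CPM there, with no overlap with the next class, TA-like cells at 83.2 ± 10.1 CPM. Enterocyte-like cells held 154, 127 and 126 CPM in Fpr2f/f and 170, 157 and 159 CPM in Fpr2VKO libraries. The highest Fpr2f/f library lay just under the lowest Fpr2VKO library, so the groups did not overlap. Of the genes tested in that class, 8.4% lay higher in every Fpr2VKO library. The log2 fold of Aldh18a1 there was 0.24 (SE 0.13, edgeR adjusted p = 0.525). In stem-like and TA-like cells the groups overlapped, with log2 folds of -0.16 (SE 0.15) and 0.02 (SE 0.15).

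Promoter sequence was at hand for 6 of the 10 genes. The 250 bases before the start site are shown for Otc and Aldh18a1, the pair of these 6 with the highest levels in enterocyte-like cells (RefSeq, GRCm38.p6, written in the direction of the gene, chrX:10252055-10252304 on the plus strand and chr19:40588464-40588713 on the minus strand). Capitals mark matches on either strand to TTTATG, a core bound by CDX factors of the intestinal epithelium, and to CACGTG, the E-box.
Otc: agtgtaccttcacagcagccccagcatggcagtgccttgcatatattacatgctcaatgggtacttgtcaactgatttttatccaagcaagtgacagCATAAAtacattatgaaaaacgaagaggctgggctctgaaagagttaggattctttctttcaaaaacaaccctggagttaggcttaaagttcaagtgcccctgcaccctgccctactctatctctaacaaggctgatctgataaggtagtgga
Aldh18a1: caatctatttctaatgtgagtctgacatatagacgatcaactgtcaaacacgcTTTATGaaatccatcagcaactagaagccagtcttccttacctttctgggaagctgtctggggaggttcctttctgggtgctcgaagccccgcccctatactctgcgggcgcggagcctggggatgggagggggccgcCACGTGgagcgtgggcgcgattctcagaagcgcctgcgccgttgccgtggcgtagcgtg
The CDX core was found once in each, and 10.8% of 32851 promoters held it in a window of the same length. The E-box occurred in Aldh18a1 and in 6.02% of all promoters. The letters CAAAGT of HNF4 sites, present in 12.6% of all promoters, were not in either window. A match is a description of the sequence and not a measured site.

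The arginine-making enzymes were low. Ass1 (chromosome 2, 31470207 to 31520672) was highest in enteroendocrine-like cells, the hormone-producing class, at 34.1 ± 15.6 CPM (SD, n = 6), and lowest in enterocyte-like cells at 1.11 ± 0.444 CPM. Asl (chromosome 5, 130011258 to 130029247) had 15.2 to 20.3 CPM in 6 of the 8 groups of cells, 34.3 ± 14.6 CPM in tuft-like cells, which sense luminal chemicals, and 6.52 ± 1.55 CPM in Paneth-like cells. Free RNA held Asl at 21.01 ± 2.52 CPM in Fpr2f/f and 18.2 ± 1.33 CPM in Fpr2VKO libraries. That was near the levels of those 6 groups and above that of Paneth-like cells. The part of free RNA in the Asl counts of cells was not measured. The tuft-like value of Asl rested on 2 to 15 UMIs per library. Neither gene separated the genotypes in the 5 classes tested.

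The polyamine-making members Odc1 and Srm were higher in TA-like and stem-like than in enterocyte-like cells, though neither was highest there. Odc1 (chromosome 12, 17544794 to 17551505), which encodes the rate-limiting decarboxylase of polyamine synthesis, had 131 ± 11.5 CPM in TA-like and 123 ± 12.6 CPM in stem-like cells, against 82.9 ± 5.33 CPM in enterocyte-like cells. Enteroendocrine-like cells were above all, at 217 ± 40.7 CPM, and within them the cluster led by Chgb and Tac1 had 266 ± 49.6 CPM and the cluster led by Gcg and Cck 109 ± 27.0 CPM. Srm (chromosome 4, 148591503 to 148594993), the spermidine synthase, had 42.9 ± 5.94 CPM in goblet-like, 32.9 ± 5.49 CPM in TA-like and 29.96 ± 3.50 CPM in stem-like cells but 8.37 ± 2.26 CPM in enterocyte-like cells.

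In stem-like cells Odc1 had 141, 123 and 136 CPM in Fpr2f/f and 114, 113 and 111 CPM in Fpr2VKO libraries. Here every Fpr2VKO library was the lower, as for 5.58% of the 10582 genes tested in that class. The log2 fold was -0.23 (SE 0.12, edgeR adjusted p = 0.827). In TA-like cells it was -0.08 (SE 0.13, edgeR adjusted p = 0.99989) with overlap of the groups. Srm had log2 folds of -0.17 (SE 0.17) and -0.21 (SE 0.16) in these classes, and its groups overlapped in each.

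Gatm (chromosome 2, 122594467 to 122611303) was almost confined to enteroendocrine-like cells among the 8 groups. It had 36.6 ± 24.9 CPM there and at most 0.613 CPM on average in any other, with 0 UMIs in tuft-like cells. The Gcg-led and Cck-led enteroendocrine cluster held 121 ± 91.9 CPM and the Chgb-led cluster 2.17 ± 2.68 CPM. Per library, enteroendocrine-like cells had 28.9, 10.6 and 12.7 CPM in Fpr2f/f and 75.0, 37.9 and 54.3 CPM in Fpr2VKO libraries, with no overlap. These levels came from 28, 13 and 5 UMIs and from 84, 29 and 38 UMIs, and in Fpr2VKO libraries 1 cell held 27.4% to 47.4% of them. Of 14426 genes with a mean of at least 1 CPM in that class, 4.26% lay higher in every Fpr2VKO library. Within the Gcg-led cluster the groups overlapped, at 56.4 ± 37.5 and 185 ± 85.7 CPM. No test was run in this class, which was not among the planned fits. It had as few as 38 cells in a library.

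**Figure D3:**
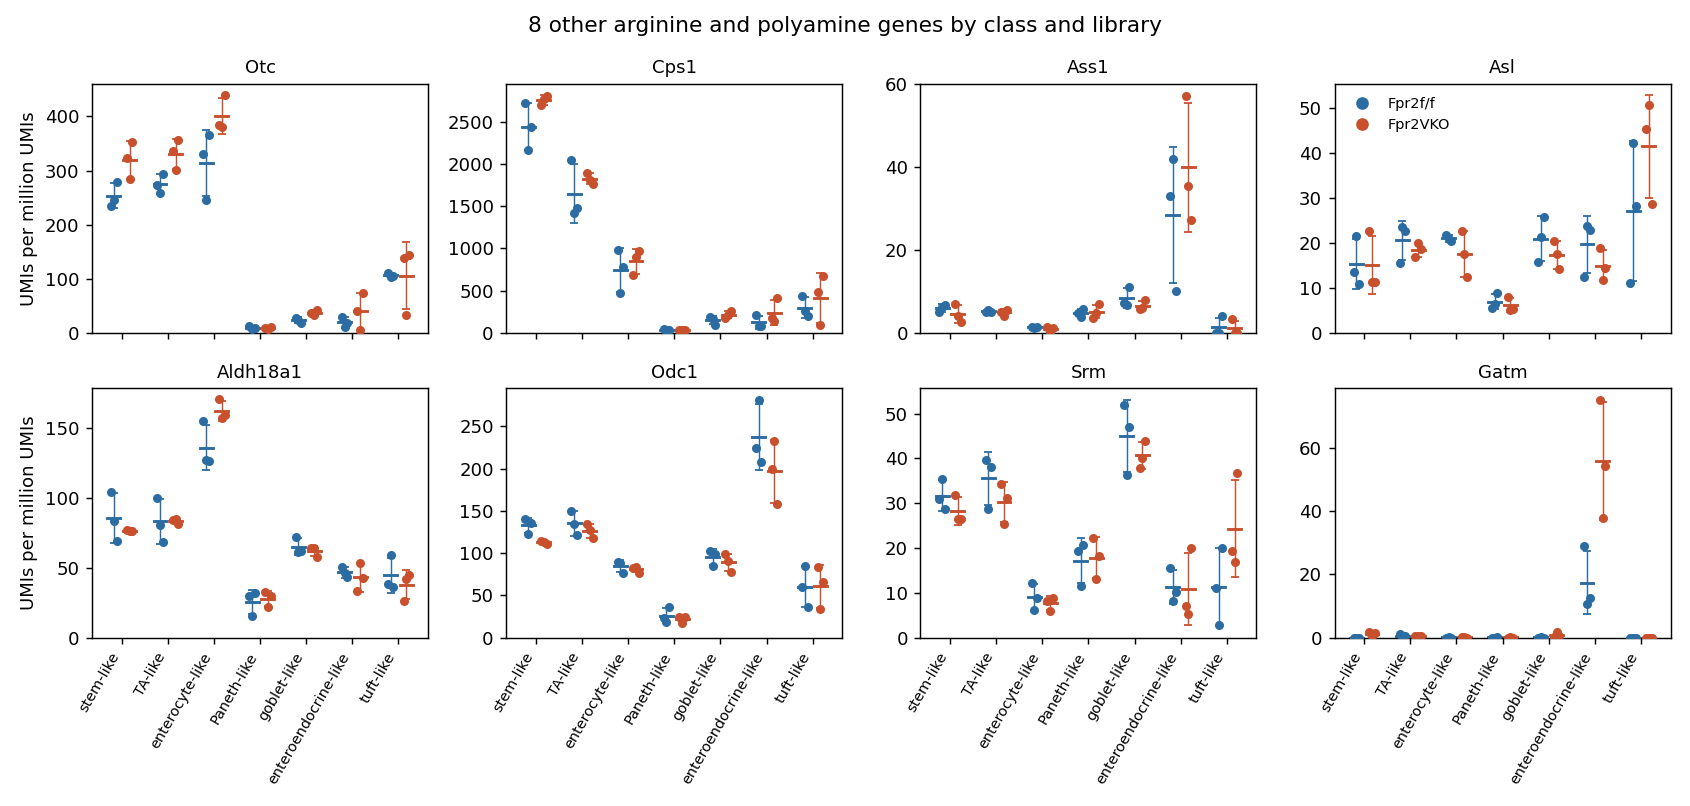
Levels of 8 members in UMIs per 1000000 UMIs by class, 1 point per library, with the mean and SD of 3 libraries per genotype. Otc and Cps1 are low in Paneth-like, goblet-like and enteroendocrine-like cells, while Ass1, Odc1 and Gatm are highest in enteroendocrine-like cells.

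Oat (chromosome 7, 132557478 to 132576398), the ornithine aminotransferase, had 0 UMIs in every library, including free RNA and barcodes with 20% to 40% mitochondrial UMIs. In the annotation used here it lies inside Fgfr2 on the same strand. Of the 285 protein-coding genes that lie inside another listed gene of their strand, 282 (98.9%) had no UMI in epithelial cells, against 5.54% of the other 21417, so its zero is no measure of its expression.

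Over the members as a whole, 0 passed the adjusted threshold in any of the 6 fits (edgeR, threshold 0.05), leaving out Arg2 where it was described only. Members fitted numbered 8 in all epithelial cells, where 0.0364% of genes were called, and 7 in stem-like cells, where 0.00945% were. TA-like cells had 8 (0.0514% of genes called), enterocyte-like cells 7 (0.0557%), Paneth-like cells 8 (0.0765%) and goblet-like cells 8 (0.144%). In TA-like cells the fit with the replicate block called 54 genes rather than 6, Arg2 among them, and in Paneth-like cells it called 16 rather than 7 and no member. Genes with an unadjusted p under 0.05 numbered 541 to 1485 in the 6 fits, and DESeq2 called 1 to 106 genes.

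By overlap of libraries, Arg2, Otc and Aldh18a1 were higher in every Fpr2VKO library in enterocyte-like cells (background 8.4% of genes). Arg2 and Otc were so in TA-like cells (background 4.06%), Otc and Gatm in stem-like cells (5.59%), Arg2, Otc and Gatm in goblet-like cells (10.1%), and no member in Paneth-like cells (1.57%). In enteroendocrine-like cells Arg2 and Gatm were so (4.26%). Among the unnamed cells only Arg2 was so (4.76%), at 93.1 ± 1.39 and 147 ± 13.97 CPM. The backgrounds of 4.26% and 4.76% cover genes with a mean of at least 1 CPM. Those of the sets of cells tested cover genes that passed the filter on low counts, so the 2 kinds are not alike. Lower in every Fpr2VKO library were Odc1 in stem-like cells and no member in all epithelial (background 10.2%), TA-like (5.05%), enterocyte-like (7.19%), Paneth-like (6.64%) or goblet-like cells (4.34%). Gatm rested on 0 UMIs in Fpr2f/f and 3 to 8 UMIs in Fpr2VKO libraries in stem-like cells, and on at most 7 UMIs in goblet-like cells. In neither class did Gatm pass the filter on low counts, and the shares of 5.59% and 10.1% cover only genes that did. The median log2 fold of the members fitted, leaving out Arg2, was 0.06 in enterocyte-like, -0.13 in goblet-like, -0.08 in TA-like, 0.04 in Paneth-like, -0.16 in stem-like and 0.05 in all epithelial cells, where the medians of all genes ran from -0.003 to 0.008.

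**Figure D4:**
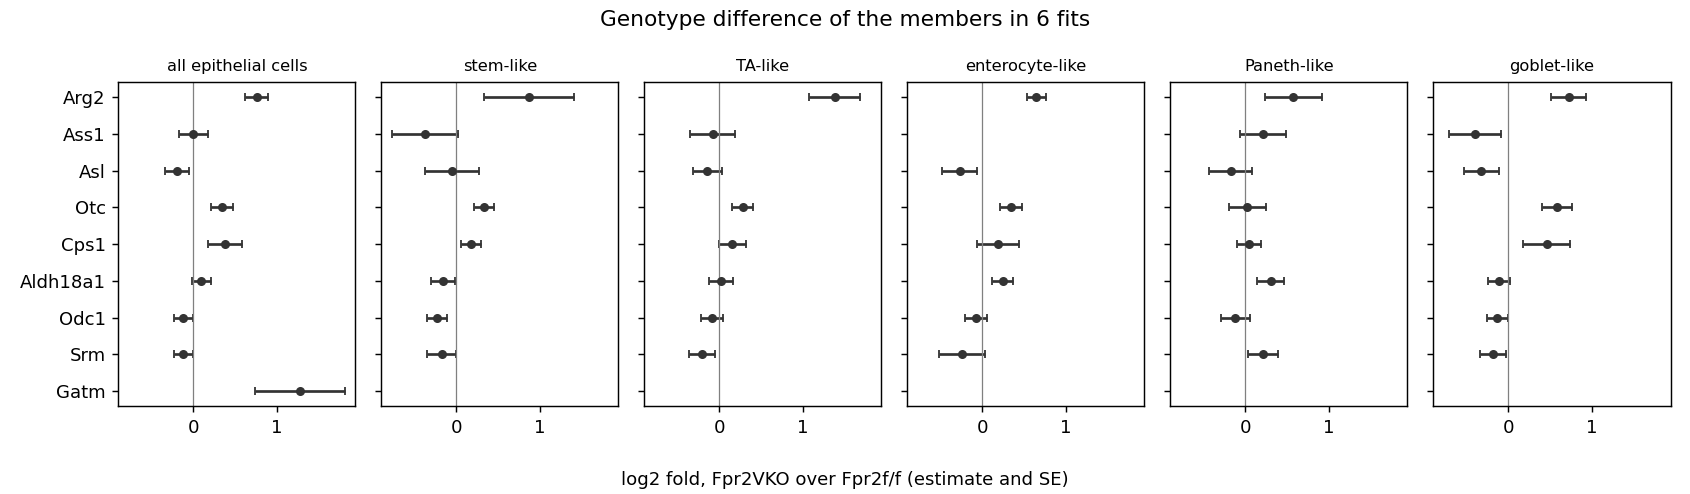
Estimated log2 fold of Fpr2VKO over Fpr2f/f with its SE for the members in the 6 edgeR fits, with the line at 0 marking no difference. Arg2 is to the right of 0 in the 4 panels in which it was tested, its points in the stem-like and all-epithelial panels are description only, and Oat and members removed by the filter on low counts have no point.

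In 36875 barcodes with 20% to 40% mitochondrial UMIs, Arg2, Otc and Aldh18a1 were higher in every Fpr2VKO library (background 8.82% of genes), as were Arg2 and Otc in free RNA (background 2.93%). Both backgrounds cover genes with a mean of at least 1 CPM.

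Of 42 other genes of arginine, proline, polyamine and creatine metabolism and transport, 28 to 40 were tested per fit and 0 passed the threshold in either direction (edgeR), with 0 to 6 at an unadjusted p under 0.05. Under alternatives Nos2, the inducible nitric oxide synthase, was called lower in Fpr2VKO in enterocyte-like cells (log2 fold -1.37 with DESeq2 and -1.34 with no filter on low counts, adjusted p = 0.000399 and 3.43e-11). DESeq2 and the fit with no filter called 0.603% and 1.14% of all genes in that class. The edgeR estimate for Nos2 there was -1.39 (SE 0.32, adjusted p = 0.317). Nos2 was also called lower in all epithelial cells under both (adjusted p = 0.0477 and 0.00332). Without alignment of libraries, Agmat was called higher and Sat1 lower in enterocyte-like cells (edgeR log2 folds 0.72 and -0.58, adjusted p = 0.0437 and 0.04395). That fit called 6.3% of all genes, and a deep cluster with Arg2 among its leading genes was outside the class. Nos2, Agmat and Sat1 were named after their values were seen. Among the 4 with the highest mean levels were Eif5a, the factor that carries the spermidine-derived residue hypusine, Oaz1, the antizyme that targets ornithine decarboxylase, and Glud1, the mitochondrial glutamate dehydrogenase. Glud1 had 316 ± 26.3 CPM in enterocyte-like and 695 ± 162 CPM in enteroendocrine-like cells, and Eif5a 398 ± 41.1 CPM in TA-like cells (SD, n = 6). Oaz1 had 363 ± 45.5 CPM in stem-like and 345 ± 28.9 CPM in enterocyte-like cells. In enterocyte-like cells the log2 folds of these 3 genes ran from -0.02 (Oaz1, SE 0.12) to 0.15 (Glud1, SE 0.11).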

How the data were processed

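UMI counts of 6 droplet libraries (MobiNova-100) were analysed. The authors deposited raw counts per gene and barcode, made with MobiVision against mm10, before any cell calling or removal of free RNA. The submitters' processing notes name Seurat 4.0.0. Any free RNA therefore stays in the counts of each cell. Labels gave the groups and replicate numbers. The study describes 3 mice per genotype, but the labels do not tie libraries to animals, so p-values measure the spread between libraries. Barcodes were filtered as stated in the report. Doublets were scored with 25% artificial doublets (0.8% removed per 1000 cells). Clustering used 2000 variable genes without the 10 members, 30 components, alignment by mutual nearest neighbours and Leiden clusters (resolution 1, 20 neighbours, leidenalg 0.10.2). A class name needed a mean marker log2 fold of 0.75, a limit set after seeing the clusters, and at least 3 markers.

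UMIs were summed per library and class and tested with edgeR 4.0.16 (quasi-likelihood, TMM, filterByExpr, robust; R 4.3.3), with Benjamini-Hochberg adjustment over all genes. The test was checked on simulated counts. Alternatives were DESeq2 1.42.0, no filter on low counts, a replicate block, mitochondrial limits of 10% and 40%, no alignment, at least 2000 UMIs, and each library left out. The naming limit of 0.5 and fits on the largest cluster were added after seeing the data. Same-numbered libraries deviated together, over 0.1 in every pair, in TA-like (r 0.27 to 0.56) and Paneth-like cells (0.13 to 0.21) only. Named genes were the members, Fpr2, pathway genes called in a fit or, with fewer than 4 called, the 4 with the highest mean, and the genes most like Arg2 (5) and each other member (1). One of the pathway genes so chosen is not reported here. Members and lists were chosen with earlier results of these data known. Positions came from GENCODE M21 by gene ID. Pairs of libraries shared 0 to 22 barcodes, and no pair was a copy.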

Additional observations from a re-analysis of the deposited data

Results flagged for a closer look

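Some members were higher in every Fpr2VKO library than in every Fpr2f/f library in barcodes outside the cells tested, which entered the comparisons only as free RNA and through the alternative mitochondrial limit of 40%. In 36875 barcodes with 20% to 40% mitochondrial UMIs, where 8.82% of genes lay so, Arg2 was at 85.5 ± 14.3 CPM in Fpr2f/f and 129 ± 19.4 CPM in Fpr2VKO libraries (SD, n = 3 each). Otc was at 125 ± 13.3 and 163 ± 20.99 CPM, and Aldh18a1 at 50.2 ± 1.02 and 57.2 ± 4.19 CPM. In free RNA, where 2.93% of genes lay so, Arg2 was at 56.7 ± 4.59 and 82.7 ± 7.17 CPM and Otc at 69.2 ± 8.78 and 91.7 ± 14.2 CPM. These barcodes came from the same libraries as the cells, so they are no independent samples.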

How the results depend on the processing

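Of 653 log2 folds of members under alternatives, leaving out Arg2 in stem-like and all epithelial cells, 627 kept the sign of the main estimate and 26 did not. The 59 for Arg2 in the 4 fits in which it was tested kept it, which is no independent support because Arg2 was chosen from these libraries. Members called in enterocyte-like cells rose from 0 to 1 with DESeq2 and with no filter on low counts, Arg2 in both. Of all genes tested, these fits called 0.603% and 1.14%, against 0.0557% in the main fit. A mitochondrial limit of 40% called 1 member (Cps1) and 0.253% of all genes. Without alignment of libraries 3 members (Arg2, Cps1 and Otc) and 6.3% of all genes were called. Both of these settings clustered the cells anew. A deep cluster with Arg2 among its leading genes was unnamed in both, outside the enterocyte-like class. In TA-like cells members called rose from 0 to 1 with no filter (0.291% of all genes) or the replicate block (0.463%). The main fits called 6, 1, 6, 6, 7 and 15 genes in all epithelial, stem-like, TA-like, enterocyte-like, Paneth-like and goblet-like cells. With no filter the counts were 190, 50, 71, 274, 49 and 65. DESeq2 called 106, 11, 65 and 13 in all epithelial, TA-like, enterocyte-like and Paneth-like cells. The replicate block called 47, 17, 54, 16 and 37 in all epithelial, stem-like, TA-like, Paneth-like and goblet-like cells and changed no call of a member other than those of Arg2. The other 4 sets of cells each had a same-numbered pair with r below 0.1. Their same-numbered r ran from 0.087 to 0.51 in all epithelial and 0.055 to 0.28 in stem-like cells. It ran from -0.19 to 0.31 in enterocyte-like and 0.019 to 0.11 in goblet-like cells. In stem-like cells every same-numbered pair lay above every other pair (-0.23 to 0.029). A mitochondrial limit of 10% called 152 in all epithelial and 1 in TA-like cells and could not be fitted for stem-like and enterocyte-like cells. A limit of 40% called 40, 24, 26 and 1 in stem-like, TA-like, enterocyte-like and Paneth-like cells. Without alignment 13 stem-like and 647 enterocyte-like genes were called. At 2000 UMIs the counts were 2 in all epithelial, 1 in enterocyte-like and 4 in Paneth-like cells. Naming at 0.5 gave 81, 1 and 2 in stem-like, TA-like and enterocyte-like cells, and the largest cluster alone gave 15 in Paneth-like and 5 in goblet-like cells. Leaving out each library gave 1 to 103, 1 to 4, 1 to 11, 1 to 22, 2 to 28 and 7 to 46 genes in the 6 fits, and 0 to 1 members in all epithelial, TA-like and enterocyte-like cells. In all epithelial cells the 1 was Cps1 without Fpr2f/f replicate 1 (log2 fold 0.70, edgeR adjusted p = 0.0492, 0.6% of all genes called). It was Arg2 in TA-like cells without Fpr2f/f replicate 3 (edgeR adjusted p = 0.0136, 0.0918% of all genes called). In enterocyte-like cells it was Arg2 without Fpr2f/f replicate 2 (edgeR adjusted p = 0.0467, 0.205% of all genes called). The cause of these changes was not tested.

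Signs that changed all belonged to folds that were not called. With the 10% limit, Cps1 (-0.43), Otc (-0.20), Srm (0.22) and Asl (0.0030) changed sign in all epithelial cells and Cps1 (-0.011) in Paneth-like cells. Other settings turned Ass1 in all epithelial cells (-0.0045, at least 2000 UMIs), Asl in stem-like cells (0.14, no alignment), Aldh18a1 in TA-like cells (-0.013, no alignment, and -0.057, largest cluster) and Odc1 in enterocyte-like cells (0.014, naming at 0.5). With each library left out, log2 folds ran from -0.11 to 0.13 for Ass1 in all epithelial cells, from -0.47 to 0.32 for Asl in stem-like cells, and from -0.15 to 0.026 (Ass1), -0.18 to 0.010 (Odc1) and -0.13 to 0.18 (Aldh18a1) in TA-like cells. In enterocyte-like cells they ran from -0.040 to 0.44 (Cps1), -0.46 to 0.028 (Srm) and -0.14 to 0.0042 (Odc1), and in Paneth-like cells from -0.041 to 0.12 (Cps1), -0.22 to 0.12 (Odc1) and -0.048 to 0.094 (Otc). Counting intervals and limits cover counting error only.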
